A study of Homo sapiens with 6 samples.

Results

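Serpins are the serine protease inhibitor superfamily, and with the plasminogen activators, the activator receptor and the membrane starters and brakes of coagulation they set how much proteolysis takes place around a cell. The genes described here are those whose symbol starts with SERPIN, without SERPINH1, together with PLAU, PLAUR, PLAT, PLG, THBD and F3. They were chosen by name, with earlier results of these data known. Of 18417 genes measured, 38 belong to this group: 32 serpin symbols, 3 of them pseudogenes in RefSeq, and the 6 other genes. A further 10 symbols that RefSeq lists under the same names were not analysed here. Every one of the 38 had 1 probe set annotated to it alone.

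A serpin presents a reactive loop as bait to its target protease. When the protease cleaves the loop, the inhibitor changes shape and traps the enzyme in an inactive complex. Tissue-type activator (PLAT) and urokinase (PLAU) cut plasminogen (PLG) into plasmin, which degrades fibrin and activates matrix metalloproteinases, and urokinase is held at the cell surface by its receptor, PLAUR. Several serpins block these activators or plasmin, others block coagulation, complement or granule proteases, and a few carry hormones or inhibit nothing.

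Total RNA of A204, a human cell line from a rhabdoid tumour, was hybridised to 6 Affymetrix whole-transcript arrays. For 3 arrays the cells had been exposed for 12 h to SAHA, also called vorinostat, which inhibits histone deacetylases (the unit of its dose is incomplete in the labels). For the 3 control arrays the treatment protocol names DMSO, although the sample characteristics call these cells untreated. Both groups are 1 cell line grown in the same serum-containing medium, and no label ties the arrays to separate cultures. The p-values therefore measure array-to-array spread, which may be technical. Levels are log2 of the RMA signal, a summary of the probes of one probe set after background correction and quantile normalization. Array medians lay between 142 and 149 on the linear scale, and arrays correlated at 0.9965 to 0.998 (Pearson's r over probe sets) within groups and at 0.9728 to 0.9738 between groups, with probe sets not being independent replicates. The number of arrays limits the precision.

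After SAHA the strongest responses in the family were rises of 3 serpins, SERPINE2, SERPINI1 and SERPINB9, by 17.4-fold, 10.1-fold and 7.43-fold. SERPING1 and SERPINF1 rose about as much as each other, by 2.03-fold and 2.01-fold, and PLAT rose 1.97-fold. PLAUR fell 2.35-fold, SERPINA3 1.63-fold and PLAU 1.59-fold. No other gene that passed changed more than SERPINA9, which fell 1.40-fold.

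At an adjusted p under 0.05 (limma, Benjamini-Hochberg over all genes), 18 of the 38 genes passed, against 60.0% of all genes tested. Of these, 10 were higher in SAHA (31.1% of all genes were) and 8 were lower (28.9% of all genes were). The share that passed was not above that of all genes, so the count is no result about the family. Without SAHA replicate 1, 5 rather than 8 genes were lower. At least 2-fold changes were found for 6 of the 38, against 11.3% of all genes. There were 5 such rises (5.84% of all genes) and 1 such fall (5.42% of all genes), with SERPINF1 just inside that limit and PLAT just outside it. Rises of at least 4-fold were found for 3 of the 38, against 1.15% of all genes. For 19 of the 38 genes the values of both groups did not overlap, against 65.4% of all genes. The median difference was 0.0044 on the log2 scale over the 38 genes and -0.0027 over all genes.

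**Figure D1:**
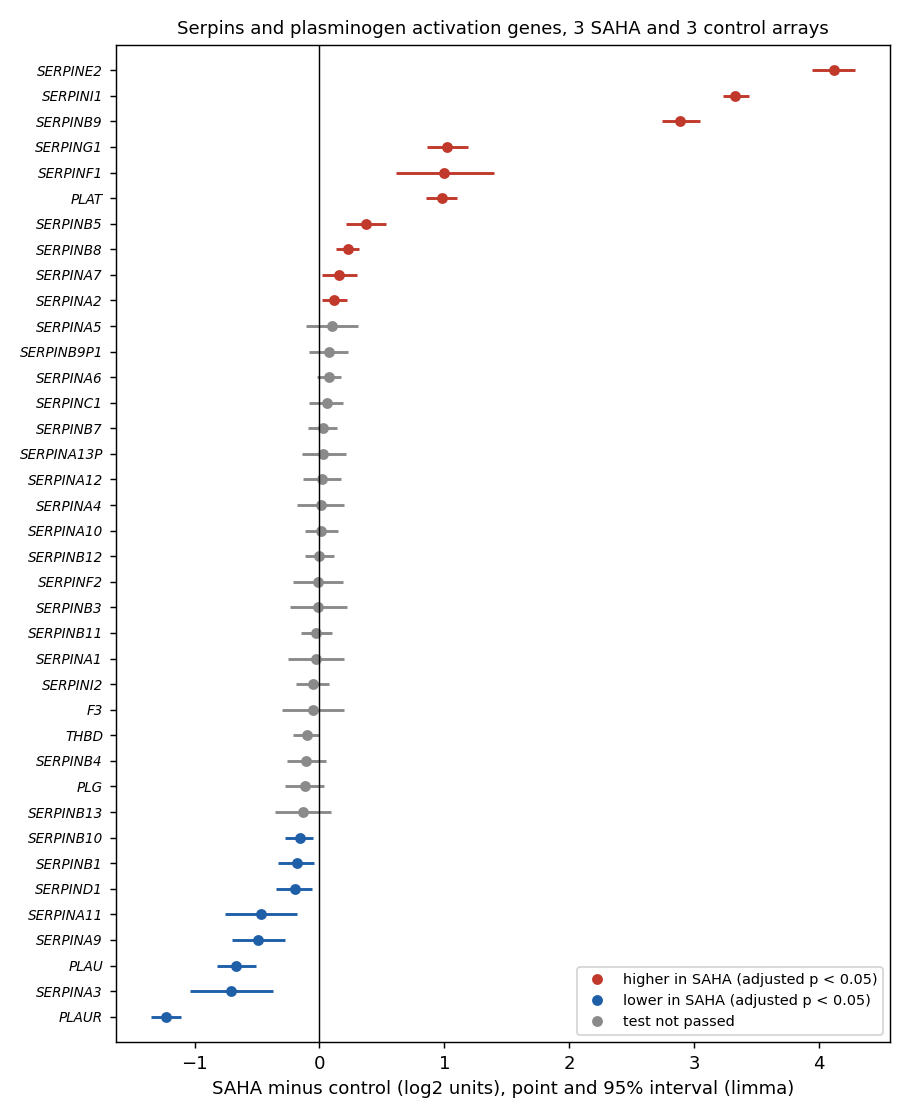
Difference between SAHA and control in log2 units for the 38 serpin and plasminogen activation genes, with the 95% interval from limma over 3 SAHA and 3 control arrays; red genes were higher, blue genes lower, and grey genes did not pass an adjusted p under 0.05. SERPINE2 (4.12), SERPINI1 (3.33) and SERPINB9 (2.89) stand at the top and PLAUR (-1.23) at the bottom.

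Most of the family lay at low levels. The median of the mean levels of all genes was 8.14, and 30 of the 38 genes lay under it. Among those 30, 5 were higher, 6 were lower and 19 did not pass. Of all 9208 genes under that level, 2237 were higher and 1500 lower. The 8 genes at or above it included 5 that were higher, 2 that were lower and 1, F3, that did not pass. Of all 9209 genes at or above it, 3498 were higher and 3814 lower. A mean over both groups counts a gene as bright partly through its rise: SERPINE2 and SERPINF1 lie above 8.14 only because of their SAHA arrays. No detection call was used, so a low level may be background, and a fold against such a level may understate the change.

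**Figure D2:**
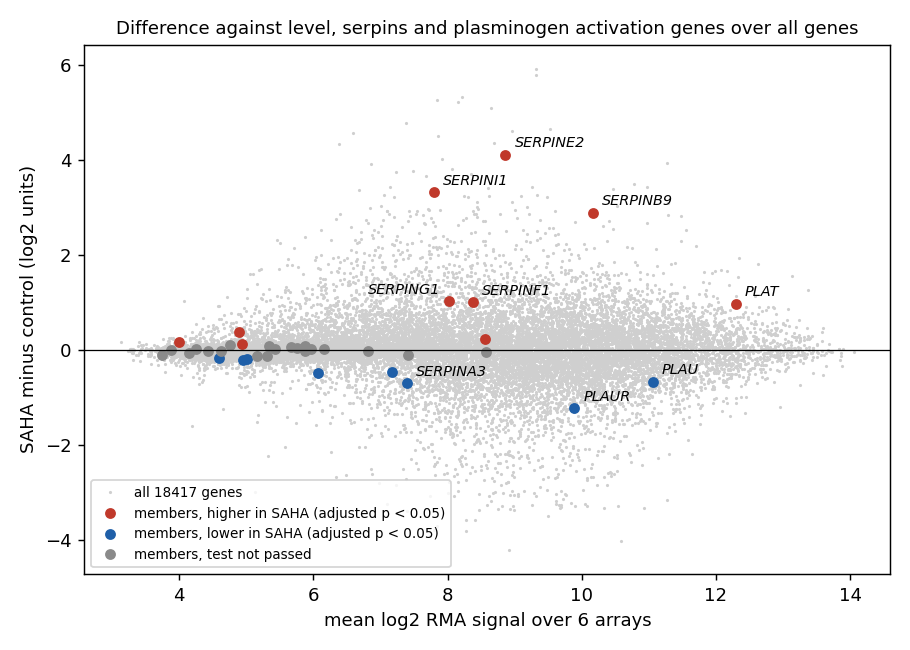
Mean log2 RMA signal over the 6 arrays against the difference between SAHA and control, for all 18417 genes (pale points) and the 38 serpin and plasminogen activation genes (large points, coloured by the test). Most of the 38 sit under the median level of 8.14 and close to 0, while SERPINE2, SERPINI1 and SERPINB9 stand far above 0.

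The 2 activators moved in opposite directions, and the urokinase receptor fell as urokinase did. PLAT, which encodes tissue-type plasminogen activator, was at 11.72, 11.81 and 11.90 in the control arrays and at 12.79, 12.79 and 12.78 in the SAHA arrays. All SAHA values were above all control values, and the rise was 0.98 ± 0.053 (log2, SE, limma adjusted p = 1.3e-06). PLAU, which encodes urokinase, was at 11.33, 11.31 and 11.54 in control and at 10.70, 10.74 and 10.76 in SAHA. The SAHA values were lower without overlap, with a difference of -0.67 ± 0.067 (SE, limma adjusted p = 4.73e-05).

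PLAUR, which encodes the urokinase receptor, fell further than urokinase itself. Its control values were 10.46, 10.58 and 10.48, and its SAHA values were 9.27, 9.23 and 9.32. Every SAHA array was more than 1 log2 unit under every control array, with a mean difference of -1.23 ± 0.051 (SE, limma adjusted p = 3.02e-07). In a bulk culture, fewer cells expressing a gene and less RNA per cell cannot be told apart.

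PLG, which encodes plasminogen and is made mainly by liver, was at 5.23, 5.30 and 5.11 in control and at 4.99, 5.12 and 5.18 in SAHA. The groups overlapped and the test was not passed (difference -0.12, 95% interval -0.28 to 0.04, limma adjusted p = 0.17). The 3 probe sets that PLG shares with its close copies were at 4.36 to 4.87 on all arrays and did not pass either, with differences from -0.06 to 0.16. Some of them held the same values on every array, so they are not 3 separate measurements. F3, which encodes tissue factor, the membrane starter of coagulation, was at 8.47, 8.47 and 8.87 in control and at 8.61, 8.49 and 8.57 in SAHA. Control replicate 3 alone lay above all SAHA arrays. The difference of -0.05 (95% interval -0.30 to 0.20, limma adjusted p = 0.733) turned to 0.09 without that array.

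THBD, which encodes thrombomodulin, the receptor that turns thrombin towards anticoagulation, was at 7.42, 7.53 and 7.44 in control and at 7.35, 7.39 and 7.35 in SAHA. All SAHA values were the lower ones, but by only 0.10, and the test was not passed (limma adjusted p = 0.0891). A further quantile normalization put it past the threshold (difference -0.15, limma adjusted p = 0.0251).

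**Figure D3:**
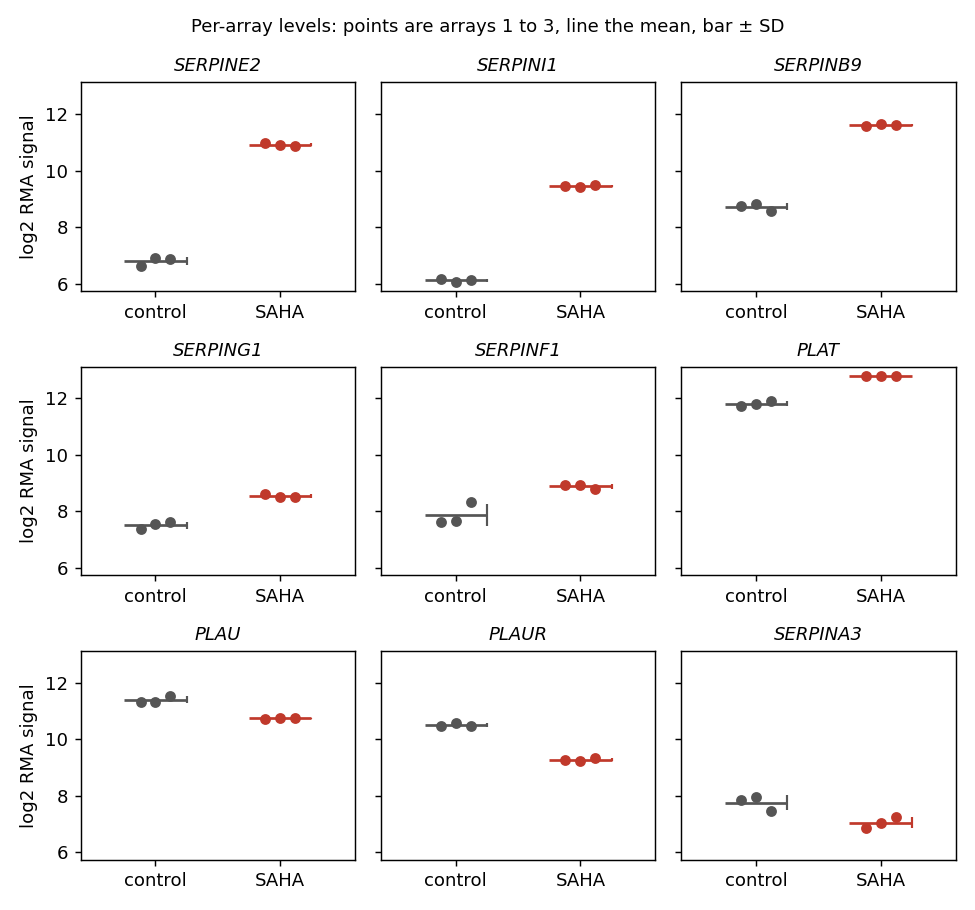
Log2 RMA signal on each control (grey) and SAHA (red) array for 9 genes; points are arrays 1 to 3, horizontal lines are group means and vertical bars are ± SD. The groups do not overlap in any of the 9 panels, and in SERPINF1 control replicate 3 (8.33) lies above the other control arrays (7.64 and 7.66).

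The inhibitors of the activators showed the largest rises of the family. SERPINE2 encodes protease nexin-1, a cell-surface inhibitor of thrombin, urokinase, tissue-type activator and plasmin. It was at 6.63, 6.91 and 6.87 in control and at 10.97, 10.92 and 10.88 in SAHA, with no array near the other group. The rise of 4.12 ± 0.075 (SE, limma adjusted p = 8.5e-09) was the 14th largest of all 18417 genes. SERPINI1 encodes neuroserpin, the inhibitor of tissue-type activator known from neurons. It was at 6.17, 6.07 and 6.13 in control and at 9.44, 9.43 and 9.51 in SAHA. Its rise of 3.33 ± 0.047 (SE, limma adjusted p = 5.41e-09) ranked 30th, and the arrays of each group lay close together.

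Other serpins related by sequence or target differed less. SERPINI2, the other measured clade I gene, which also lies on chromosome 3, was at 4.10, 4.18 and 4.24 in control and at 4.05, 4.11 and 4.20 in SAHA (difference -0.05, limma adjusted p = 0.463, and 0.02 after a further quantile normalization). SERPINA5, the protein C inhibitor, which also acts on urokinase, was at 4.64, 4.58 and 4.90 in control and at 4.92, 4.71 and 4.78 in SAHA, with overlapping groups (difference 0.10, limma adjusted p = 0.398). Without control replicate 3 its difference was 0.19 and passed (limma adjusted p = 0.0459). SERPINF2, which encodes antiplasmin, the main plasmin inhibitor of blood, was at 6.66, 6.93 and 6.88 in control and at 6.71, 6.94 and 6.79 in SAHA. Its groups overlapped almost entirely (difference -0.01, 95% interval -0.21 to 0.19, limma adjusted p = 0.922), and the sign turned under 5 of 16 alternatives. SERPINA5, SERPINI2 and SERPINB9P1 are named here for their roles or position, outside the rule for named genes.

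SERPINB9 encodes the intracellular inhibitor of granzyme B, the killing protease of cytotoxic lymphocytes. It was at 8.74, 8.83 and 8.58 in control and at 11.58, 11.64 and 11.61 in SAHA. The rise of 2.89 ± 0.066 (SE, limma adjusted p = 1.96e-08) was the 58th largest of all genes. GZMB itself, which encodes granzyme B, was at 6.27 ± 0.03 in control and 6.21 ± 0.06 in SAHA (SD, n = 3) and did not pass (limma adjusted p = 0.296).

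The promoters of the genes with the largest rises and of PLAUR, the gene with the largest fall, are shown so that their sequences can be set side by side. They are the 250 bases before the RefSeq start site (GRCh38.p14), 5′ to 3′ on the gene's strand: SERPINE2 at chr2:224031479-224031728 on the minus strand, SERPINI1 at chr3:167735471-167735720 on the plus strand, SERPINB9 at chr6:2903310-2903559 on the minus strand and PLAUR at chr19:43670170-43670419 on the minus strand. Capitals mark matches to 6 short motifs: the GC box GGGCGG, the CCAAT box CCAAT, the TATA box TATAAA, the AP-1 site TGANTCA, the cAMP response element core TGACGTCA and the E-box CACGTG, each searched on both strands.
SERPINE2: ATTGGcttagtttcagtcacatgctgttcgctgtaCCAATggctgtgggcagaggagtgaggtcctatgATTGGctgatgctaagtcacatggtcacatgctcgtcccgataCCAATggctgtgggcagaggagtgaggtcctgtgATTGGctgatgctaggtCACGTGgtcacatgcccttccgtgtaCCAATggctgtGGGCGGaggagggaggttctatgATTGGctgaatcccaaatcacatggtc
SERPINI1: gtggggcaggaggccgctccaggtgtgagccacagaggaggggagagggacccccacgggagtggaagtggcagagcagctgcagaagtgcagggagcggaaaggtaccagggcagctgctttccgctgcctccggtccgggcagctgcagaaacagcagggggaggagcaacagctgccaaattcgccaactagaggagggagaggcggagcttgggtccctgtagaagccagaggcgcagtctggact
SERPINB9: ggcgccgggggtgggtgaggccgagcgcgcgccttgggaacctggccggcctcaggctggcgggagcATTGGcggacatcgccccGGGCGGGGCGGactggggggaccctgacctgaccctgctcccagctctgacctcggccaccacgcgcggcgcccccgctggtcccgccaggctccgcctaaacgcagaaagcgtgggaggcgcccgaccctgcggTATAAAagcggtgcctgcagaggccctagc
PLAUR: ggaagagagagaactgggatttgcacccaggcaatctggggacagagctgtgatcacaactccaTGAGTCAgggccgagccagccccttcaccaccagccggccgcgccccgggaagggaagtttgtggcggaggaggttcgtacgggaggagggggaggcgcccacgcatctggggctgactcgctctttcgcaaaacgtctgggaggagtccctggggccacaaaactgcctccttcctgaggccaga

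The SERPINE2 window held 7 matches to CCAAT, 3 on the gene's strand and 4 on the other, at distances of 34, 35 or 43 bases from one to the next. The sequence around them repeats along the window with few changes, so the 7 matches are not independent of each other. Of 27305 RefSeq promoter windows of this length, 33% held at least 1 match and 6 windows (0.022%) held 7 or more. The window also held a GC box at -50 and an E-box at -87 (positions count back from the start site). GC boxes were found in 42.3% of all windows and E-boxes in 6.49%. The SERPINB9 window held 2 GC boxes, which overlap by 1 base and start at -165 and -160, a CCAAT match at -183 and a TATA box at -30 (11.1% of all windows). The PLAUR window held 1 AP-1 site at -186, which 6.6% of all windows held, and the SERPINI1 window held none of the 6 motifs. A match describes the letters only.

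CpG content differed as widely. The window of SERPINB9 held 27 CpG pairs, that of PLAUR 13, that of SERPINI1 9 and that of SERPINE2 6, against a median of 11 over all windows. Of the 38 genes, 27 had a window in the table used. Across those 27 the count ran from 0 (SERPINA7) to 34 (F3) with a median of 4, and 5 of them lay above the median of all windows. F3, with the most CpG pairs and 4 GC boxes, did not pass the expression test.

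SERPING1 encodes the C1 inhibitor, which restrains the complement proteases C1r and C1s as well as plasma kallikrein and factor XIIa. It was at 7.36, 7.56 and 7.61 in control and at 8.61, 8.50 and 8.50 in SAHA, and no array overlapped. The rise was 1.02 ± 0.072 (SE, limma adjusted p = 5.42e-06). Of its targets, C1S rose by 0.73 and C1R fell by 0.30 (limma adjusted p = 1.22e-05 and 0.004). KLKB1 and F12, the genes of plasma kallikrein and factor XII, did not pass (differences 0.10 and 0.07, limma adjusted p = 0.336 and 0.199).

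SERPINF1 encodes pigment epithelium-derived factor, a secreted serpin that inhibits no protease and is known for restraining vessel growth. Its control values were 7.64, 7.66 and 8.33, and its SAHA values were 8.93, 8.93 and 8.79. The groups did not overlap, but control replicate 3 stood nearer to SAHA than the other control arrays did. The mean went from 7.88 ± 0.40 to 8.88 ± 0.08 (SD, n = 3, limma adjusted p = 0.00111), and the difference was 1.23 without that array. SERPINF2 is its neighbour on chromosome 17 and did not pass, and the difference between the responses of the neighbours was not tested.

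Of the plasma inhibitors of thrombin, SERPINC1 did not pass and SERPIND1 fell by a small amount. SERPINC1, which encodes antithrombin, was at 5.70, 5.67 and 5.55 in control and at 5.65, 5.77 and 5.67 in SAHA, overlapping (difference 0.06, limma adjusted p = 0.431). SERPIND1, which encodes heparin cofactor II, was at 5.04, 5.17 and 4.94 in control and at 4.85, 4.86 and 4.82 in SAHA. All SAHA values were lower, by 0.20 ± 0.062 (SE, limma adjusted p = 0.0209). That call ended without SAHA replicate 1 (limma adjusted p = 0.0508) and without SAHA replicate 3 (0.0645), and with an ordinary unmoderated test (0.0667).

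Clade A, the secreted serpins of liver and plasma, had 12 measured symbols, of which 2 were higher, 3 were lower and 7 did not pass, with differences from -0.71 to 0.16 (over all genes 31.1% were higher and 28.9% lower). SERPINA3 encodes antichymotrypsin, an acute-phase inhibitor of cathepsin G. It was at 7.85, 7.96 and 7.45 in control and at 6.86, 7.02 and 7.26 in SAHA. The nearest arrays of the groups, at 7.45 and 7.26, stood close, and the fall was 0.71 ± 0.145 on the log2 scale (SE, limma adjusted p = 0.00304). SERPINA9, known from germinal centre B cells, was at 6.42, 6.40 and 6.14 in control and at 5.83, 5.71 and 5.95 in SAHA, a difference of -0.49 (limma adjusted p = 0.00173). SERPINA11 was at 7.69, 7.28 and 7.24 in control and at 6.91, 7.07 and 6.81 in SAHA, a difference of -0.47 (limma adjusted p = 0.0109, and 0.0759 with an ordinary unmoderated test). All 3 fell without overlap between the groups.

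SERPINA1, which encodes antitrypsin, the main inhibitor of neutrophil elastase, was at 5.89, 5.89 and 5.90 in control and at 6.11, 5.79 and 5.70 in SAHA. The SAHA arrays fell on both sides of the control arrays (difference -0.03, 95% interval -0.25 to 0.20, limma adjusted p = 0.842). Its sign turned without SAHA replicate 2 (0.01) and without SAHA replicate 3 (0.06). The 2 rises of the clade were small. SERPINA7, the carrier of thyroid hormone, differed by 0.16 (limma adjusted p = 0.0456) and its groups overlapped, and SERPINA2, a pseudogene close to SERPINA1, differed by 0.12 (limma adjusted p = 0.0496). The call of SERPINA7 ended under 10 of 15 alternatives, among them leaving out control replicate 2 or 3 or SAHA replicate 1 or 2. That of SERPINA2 ended under 11 of 15, among them leaving out any array but control replicate 1. The 7 symbols that did not pass lay between -0.03 and 0.10.

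Clade B, the intracellular serpins, also had 12 measured symbols, of which 3 were higher (31.1% of all genes), 2 were lower (28.9% of all genes) and 7 did not pass. Beside SERPINB9, the rises were those of SERPINB5 and SERPINB8. SERPINB5 encodes maspin, known as a suppressor of invasion in breast epithelium. It was at 4.72, 4.70 and 4.67 in control and at 5.02, 4.96 and 5.23 in SAHA (difference 0.37, limma adjusted p = 0.00197). SERPINB8, an inhibitor of furin, was at 8.46, 8.46 and 8.42 in control and at 8.65, 8.69 and 8.70 in SAHA (difference 0.23, limma adjusted p = 0.00159). The groups of both genes were apart, and the rise of SERPINB8 was small but its arrays lay close together in each group.

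The falls in clade B were smaller still. SERPINB1, an inhibitor of neutrophil elastase, was at 5.19, 5.12 and 4.97 in control and at 4.92, 4.88 and 4.94 in SAHA (difference -0.18, limma adjusted p = 0.0318). SERPINB10 was at 4.63, 4.73 and 4.66 in control and at 4.48, 4.49 and 4.56 in SAHA (difference -0.16, limma adjusted p = 0.019). The call of SERPINB1 ended under 9 of 16 alternatives, among them leaving out any array but control replicate 3. That of SERPINB10 ended under 5 of 15, among them leaving out control replicate 2 or SAHA replicate 1 or 2. The 7 symbols that did not pass lay between -0.13 and 0.08. SERPINB3 and SERPINB4 are near-identical copies whose probes could share signal, and both are among these 7.

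Many serpin genes lie side by side in 3 clusters, and changes within them were uneven. On chromosome 6, SERPINB9 rose by 2.89 while SERPINB9P1, the pseudogene beside it, was at 5.83 ± 0.08 in control and 5.91 ± 0.10 in SAHA (SD, n = 3, limma adjusted p = 0.377), and SERPINB1 was among the falls. On chromosome 14, 11 measured clade A symbols follow each other. SERPINA11 and SERPINA9, which are neighbours there, fell by like amounts, and SERPINA3, further along, fell most, while 7 of the 11 did not pass. On chromosome 18, the 9 measured clade B symbols had SERPINB5 at one end and SERPINB8 at the other as the only genes that were higher, 6 that did not pass and SERPINB10 as the only one that was lower. These counts stand beside 31.1% higher, 28.9% lower and 60.0% passing in either direction over all genes. Gene order was taken from RefSeq, and whether neighbours change together more than other genes was not tested.

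**Figure D4:**
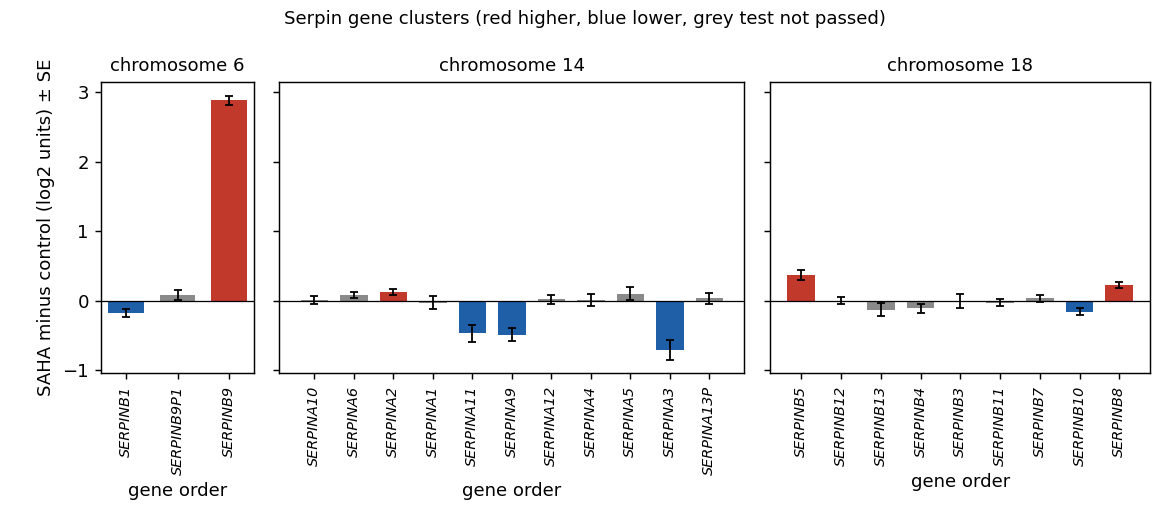
Difference between SAHA and control in log2 units, with ± SE bars from limma, for the measured serpin symbols of the clusters on chromosomes 6, 14 and 18 in RefSeq gene order (red higher, blue lower, grey test not passed). SERPINB9 (2.89) is the single tall bar, and on chromosome 14 the downward bars are SERPINA11 (-0.47), SERPINA9 (-0.49) and SERPINA3 (-0.71).

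The nearest measured neighbours of the most changed genes mostly moved less. Beside SERPINE2, both neighbours did not pass. Beside SERPINI1, PDCD10, which encodes a scaffold protein of vessel integrity, differed by 0.19 (limma adjusted p = 0.0302), a call that ended without control replicate 1 or 2 or SAHA replicate 1 or 2. GOLIM4, a Golgi protein gene and the other measured neighbour, also differed by 0.19 (limma adjusted p = 0.00758). Beside PLAUR, the adhesion gene CADM4 rose by 1.65 while PLAUR fell by 1.23, and beside PLAT the kinase gene IKBKB fell by 0.88 while PLAT rose by 0.98. Beside SERPING1, the ubiquitin-conjugating enzyme gene UBE2L6 rose by 0.64. IRGC, also beside PLAUR, and MIR130A, also beside SERPING1, did not pass (limma adjusted p = 0.964 and 0.462). AP3M2, also beside PLAT, fell by 0.28, and SMYD4 beside SERPINF1 fell by 0.19. SERPINF2, on the other side of SERPINF1, and both neighbours of SERPINB9 (differences 0.08 and 0.11) did not pass.

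Other genes of the pathway were taken from 6 lists, whose counts stand against 31.1% higher, 28.9% lower and 60.0% passing in either direction over all genes. Of 19 plasminogen receptors, binders and clearance receptors, 11 were higher, 4 were lower and 4 did not pass (median difference 0.19, against 0.00 over all genes). ITGB3, a subunit of the vitronectin receptor, rose by 1.68. The endocytic receptors LRP1 and LRP2, which take up complexes of serpins with their proteases, rose by 0.98 (9.74 ± 0.10 to 10.72 ± 0.03, SD, n = 3) and by 1.11. The 4 that were lower, named after their values were seen, were the matrix protein gene VTN (-0.78), the receptor gene LRP8 (-0.54) and the plasminogen receptor genes PLGRKT (-0.49) and ENO1 (-0.33).

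The next list held 24 genes, of matrix proteases, their inhibitors, and growth factors and their activation. Of these, 10 were higher, 4 were lower and 10 did not pass (median 0.04). MMP10, stromelysin-2, rose by 3.43 and TIMP1, a metalloproteinase inhibitor, by 1.80, beside a rise of 5.10 for the collagenase MMP1. MMP2 and MMP14, the gelatinase and the membrane protease that activates it, fell by 1.39 and by 1.16 and were named outside the rule. The list, like the activators, held changes in both directions.

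Of 28 measured coagulation genes, 8 were higher, 3 were lower and 17 did not pass (median 0.05). The protein C receptor gene PROCR rose by 1.44, the Kunitz inhibitor gene TFPI2 by 1.56 and the vitamin K-dependent carboxylase gene GGCX by 0.63. TFPI, the tissue factor pathway inhibitor gene, fell by 0.96 (limma adjusted p = 7.21e-05), and like VTN it stands outside the naming rule. Of 27 measured proteases that serpins inhibit, 11 were higher, 4 were lower and 12 did not pass (median 0.09). CTSB, cathepsin B, rose by 1.27 and PRSS12, a neuronal serine protease, by 1.48, while CASP8, caspase-8, fell by 0.62.

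Of 31 measured genes of other protease inhibitor families, 13 were higher, 18 did not pass and 0 were lower (limma adjusted p, with 1 lower at an unadjusted p under 0.05 and 0 by the ordinary unmoderated test), with differences from -0.18 to 1.06 and a median of 0.06. SPINK2, a Kazal-type inhibitor, rose by 1.06, the cystatin gene CST1 by 0.90 and APLP2, which carries a Kunitz domain, by 0.60. Of 31 measured regulators known to act on genes of this family, 19 were higher, 9 were lower and 3 did not pass (median 0.32), against 60.0% of all genes passing. JUN and FOS, which form the AP-1 factor, rose by 1.29 and 1.81, TGFB1, a growth factor that induces serpins, by 1.04, and NFKB1 fell by 1.81. No link between these regulators and the serpin genes was tested.

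**Figure D5:**
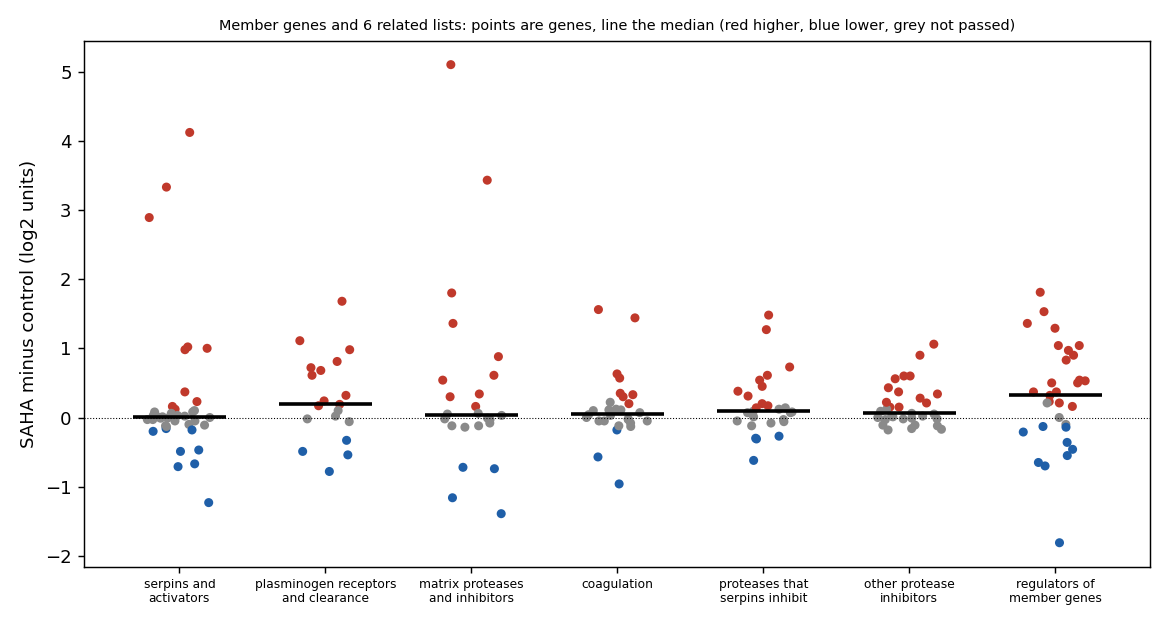
Difference between SAHA and control in log2 units for the serpin and plasminogen activation genes and for 6 related lists; points are genes (red higher, blue lower, grey test not passed), spread sideways only to separate them, and black lines are medians. The medians lie between 0.00 and 0.32, and each list has genes well away from its median.

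Marker lists were read to describe the cells, and their counts stand against 31.1% higher and 28.9% lower over all genes. Of 6 rhabdoid and mesenchymal markers 1 was higher, CD99 (0.39), and 4 were lower, most of all EZH2 (10.96 in control, 9.97 in SAHA). VIM was at 12.81 in control and 12.63 in SAHA, KRT8 at 13.55 and 13.48 and KRT18 at 13.54 and 13.33, while SMARCB1, the gene typically lost in rhabdoid tumours, was at 7.74 and 7.22, with no detection call to say whether that is signal. Of 8 hepatocyte markers, 1 was higher and 3 lower by at most 0.30, and of 7 measured keratinocyte markers 2 were higher and 2 lower. The brightest keratinocyte markers were KRT5 (11.23 in control, 10.6 in SAHA) and KRT14 (9.06 in control, 9.01 in SAHA). Of 8 endothelial markers 2 were higher and 2 lower, with a summed linear signal of 7200 to 7460 in control and 2010 to 2090 in SAHA that was led by CDH5 (-2.19). Of 8 monocyte markers 2 were higher, CD14 (8.94 in control, 10.94 in SAHA) and CD68 (1.55), and 1, CSF1R (-1.63), was lower, with a summed signal of 1880 to 2130 in control and 4170 to 4210 in SAHA. Of 8 smooth muscle and fibroblast markers 3 were higher, most of all COL1A2 (1.39), and 3 lower, most of all TAGLN (-1.44). Their part in the serpin results was not tested.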

How the data were processed

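Signal intensities of 33252 probe sets were used as deposited. The authors summarised them with RMA, per the submitters' processing notes. Which RMA software they ran is not stated in the labels. Deposited intensity values are on a linear scale (6.56 to 20338), so log2 was taken first. Of the probe sets, 19460 named 1 gene in the platform annotation, 1754 several and 12038 none. RefSeq (GRCh38.p14) gave 19429 of them a current symbol by Entrez identifier. For each gene the brightest probe set over 6 arrays was kept. No dim gene was left out.

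The 3 SAHA and 3 control arrays, grouped by their titles, were compared with limma 3.58.1 in R 4.3.3 (lmFit and eBayes, no covariates, two-sided, Benjamini-Hochberg over 18417 genes, threshold 0.05). The fit was also run on simulated data in which only a small part of the genes was changed, a setting unlike these data. Every adjusted p is limma's unless an ordinary unmoderated test is named. Since RMA equalises the arrays' distributions, total RNA per cell is not measured.

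The genes and lists were chosen with earlier results of these data known. Named genes are members changed at least 2-fold, a fixed list of members, all members called, and of each related list the 3 with the smallest adjusted p and the 2 largest changes. Other genes named were chosen for role, position, as cell markers or after their values were seen. Promoter windows and gene order came from RefSeq. There were 17 alternatives: scaling, centring, filters on dim genes, log2(value + 16), probe set rules, variance models, array weights, a replicate block and each array left out.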

Additional observations from a re-analysis of the deposited data

How the results depend on the processing

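Of the 18 serpin and activator genes that passed, 12 passed with the same sign under every alternative that kept them, SERPINE2, SERPINI1, SERPINB9, SERPING1, SERPINF1, PLAT, PLAU and PLAUR among them. The exceptions were SERPINA11, SERPINA2, SERPINA7, SERPINB1, SERPINB10 and SERPIND1. When only genes at or above the median level were fitted, fewer genes entered: 5 of the family were higher and 2 lower (10 and 8 otherwise), 3660 of all genes were higher (5735 otherwise), 44 genes of the related lists were higher (72 otherwise) and the family median was 0.60 (0.0044 otherwise), over the 8 members left. An ordinary unmoderated test left 5 lower members. Leaving out 1 array at a time gave 5 to 8 lower members, the 5 without SAHA replicate 1, and family medians from -0.0308 to 0.0274. A further quantile normalization moved that median to 0.0441. The cause of these shifts, other than fewer genes or arrays, was not tested. Signs turned for genes that did not pass: SERPINA1 without SAHA replicate 2 or 3 (0.0115 and 0.0563, from -0.1446 to 0.0563 over arrays left out), F3 without control replicate 3 (-0.1164 to 0.0874), SERPINI2 after a further quantile normalization (0.0208) and SERPINF2 with array weights (0.0219) and without single arrays (-0.0948 to 0.0422). The alternatives were also read for 44 other named genes, of which 41 kept call and sign. The exceptions were KRT8, KRT18 and PDCD10. KRT5, KRT14, COL1A2, TAGLN, KLKB1, F12, IRGC, MIR130A, AP3M2 and SMYD4 were not among the 44.

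Same-numbered arrays of the 2 groups did not deviate together (correlations of -0.03, -0.167 and -0.004 for numbers 1, 2 and 3), so the number was not taken as a pairing. With it as a replicate block, 8 members were higher and 8 lower, and over all genes 5520 were higher and 5081 lower.

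Signal near background limits most of the family: without detection calls, small differences of dim serpins cannot be read as presence or absence.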
